A study of Mus musculus with 4 samples.

Results

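The 34 genes described here code for enzymes, and a few proteins of similar distribution, that serve metabolism in the proximal tubule of the mouse kidney. They were taken as a fixed list of gene symbols, and all 34 were found among the 20672 genes of the deposited count files. Single-cell RNA was read in 4 mouse kidney libraries labeled wild type, each the only library of its group. The E15.5 library came from ICR kidneys of embryonic day 15.5 and the P0 library from ICR kidneys of the day of birth. The E17.5 library came from C57BL/6 kidneys of embryonic day 17.5. The transplant library came from C57BL/6N kidneys that were taken at E12.5 and left for 12 days in the fat of the epididymis of a host. One label gives the host strain as C57BL/6N and the design text gives immunodeficient NOD mice, so the host strain is not settled. E15.5 and P0 share their strain label, whereas in comparisons of E17.5 or the transplant with them, strain and stage or graft cannot be told apart. The E17.5 and transplant labels are C57BL/6 and C57BL/6N, and there age and graft cannot be told apart. How many animals went into a library is not given.

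The proximal tubule takes back most of what the glomerulus filters, and its cells also make glucose, break down glutathione and peptides, start creatine synthesis, degrade amino acids and conjugate foreign compounds. These enzymes are best known from liver and adult kidney cortex. The tubule changes along its length: Slc5a2 and Slc5a12 carry glucose and lactate in its early part, and Slc5a1 and Slc7a13 are transporters of its late part. Nuclear receptors of the HNF4 family are long known to drive genes of this cell type.

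Promoter windows of 30 bases show where letters read by HNF4 occur near 2 of the genes, the only ones with such a match among those with a promoter in the table. The sequences are RefSeq promoters on GRCm38.p6, each read 5′ to 3′ on the strand of the gene, distances are to the RefSeq start, and the capitals mark the match. For all 4 genes shown this start lies inside the gene span of the GRCm38 annotation used for the gene positions given below.
Aspdh, chr7:44465373-44465402, plus strand, CAAAGTCCA (HNF4) from 52 to 44 bases before the start: agtcaggggtCAAAGTCCAaagttcattca
Aadat, chr8:60506042-60506071, plus strand, CAAAGTCCA (HNF4) on the opposite strand, from 72 to 64 bases before the start: cctctgtggaTGGACTTTGtcccttctgcc
Kap, chr6:133853681-133853710, minus strand, TATAAA from 31 to 26 bases before the start: gagtacaggatgTATAAAagcccaggagga
Miox, chr15:89334421-89334450, plus strand, TATAAA from 40 to 35 bases before the start: aacctgtgcgcaTATAAAgagctcctgggc
The windows of Kap and Miox were added after the wide range of these genes had been seen. Of the 34 genes, 31 had a promoter in the table (not Ttc36, Napsa and Fmo1). In the 250 bases before the start, on both strands, CAAAGTCCA occurred in 2 of them (6.45%) and in 0.384% of all 32851 promoters. TATAAA, the letters of a TATA box, occurred in 8 (25.8%) against 12.4%, and TGTTCT, core letters of steroid receptor sites, in 2 (6.45%) against 16.1%. These letters overlap no other motif searched. A match describes the sequence and is not a measured binding site.

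The libraries held 42430540 to 99068204 unique molecular identifiers (UMIs, each standing for 1 captured RNA molecule), and 3463 to 7568 cells each were used. Cells of the 4 libraries were clustered together without the 34 genes, and 4 clusters with proximal tubule markers (7 to 11 of 11 markers at least 2-fold above other cells) were called proximal tubule-like. All 11 markers were detected in them in each library. The E15.5 library had 202 of these cells (median 24307 UMIs), E17.5 had 696 (9216 UMIs), P0 had 891 (14397 UMIs) and the transplant had 1102 (11873.5 UMIs). The clusters differed between libraries. In situ, nearly all cells lay in a cluster led by Cthrc1, Osr2, Cdh6 and Hnf4a or in one led by Slc22a19, Gsta2, Fbp1 and Slc5a8. The first of them held 76.2% of the E15.5, 31.9% of the E17.5, 53.3% of the P0 and 2.81% of the transplant cells. In the transplant 64.0% lay in a cluster led by Slc13a1, Slc5a1 and Slc27a2 and 32.4% in one led by Slc5a2 and Slc5a12. Library pairs shared 27 to 108 cell barcodes, 19 to 60 among the cells used. Y-linked UMIs were found in 49.8% of E15.5, 0.0227% of E17.5, 0.0529% of P0 and 62.5% of transplant cells, so the sex makeup read from these genes differed too and cannot be told apart from the groups. UMIs of tdTomato, a reporter that no label names, were counted in the P0 library alone (8181). In the proximal tubule-like cells 12 dissociation-stress genes summed to 1699 CPM (UMIs per 1000000 UMIs of the class) for E15.5, 2907 for E17.5, 5926 for P0 and 3156 for the transplant. Erythroid markers, which these cells should lack, summed to 702, 8.33, 10.4 and 784 CPM in the same order.

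The 34 genes together made up 0.376% of proximal tubule-like UMIs of the E15.5 library, 1.19% of E17.5, 0.730% of P0 and 1.23% of the transplant. Levels below are CPM of all proximal tubule-like cells of a library. Where 4 levels are given they stand for E15.5 first, then E17.5, then P0 and last the transplant. Ratios are ratios of CPM, with 95% intervals that cover counting error only. With 1 library a group there is no replicate check, no test was made, and a gene is counted as higher or lower from a 2-fold ratio on, among genes with at least 20 UMIs over both sides. In a class of pooled cells, more cells of an advanced state and more RNA of a gene per cell cannot be told apart. How reads shared by near-identical genes were counted is not given in the sources used here, so Gsta2, Ugt2b34, Akr1c21, Keg1, Glyat and the Cyp genes are uncertain to that extent.

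**Figure D1:**
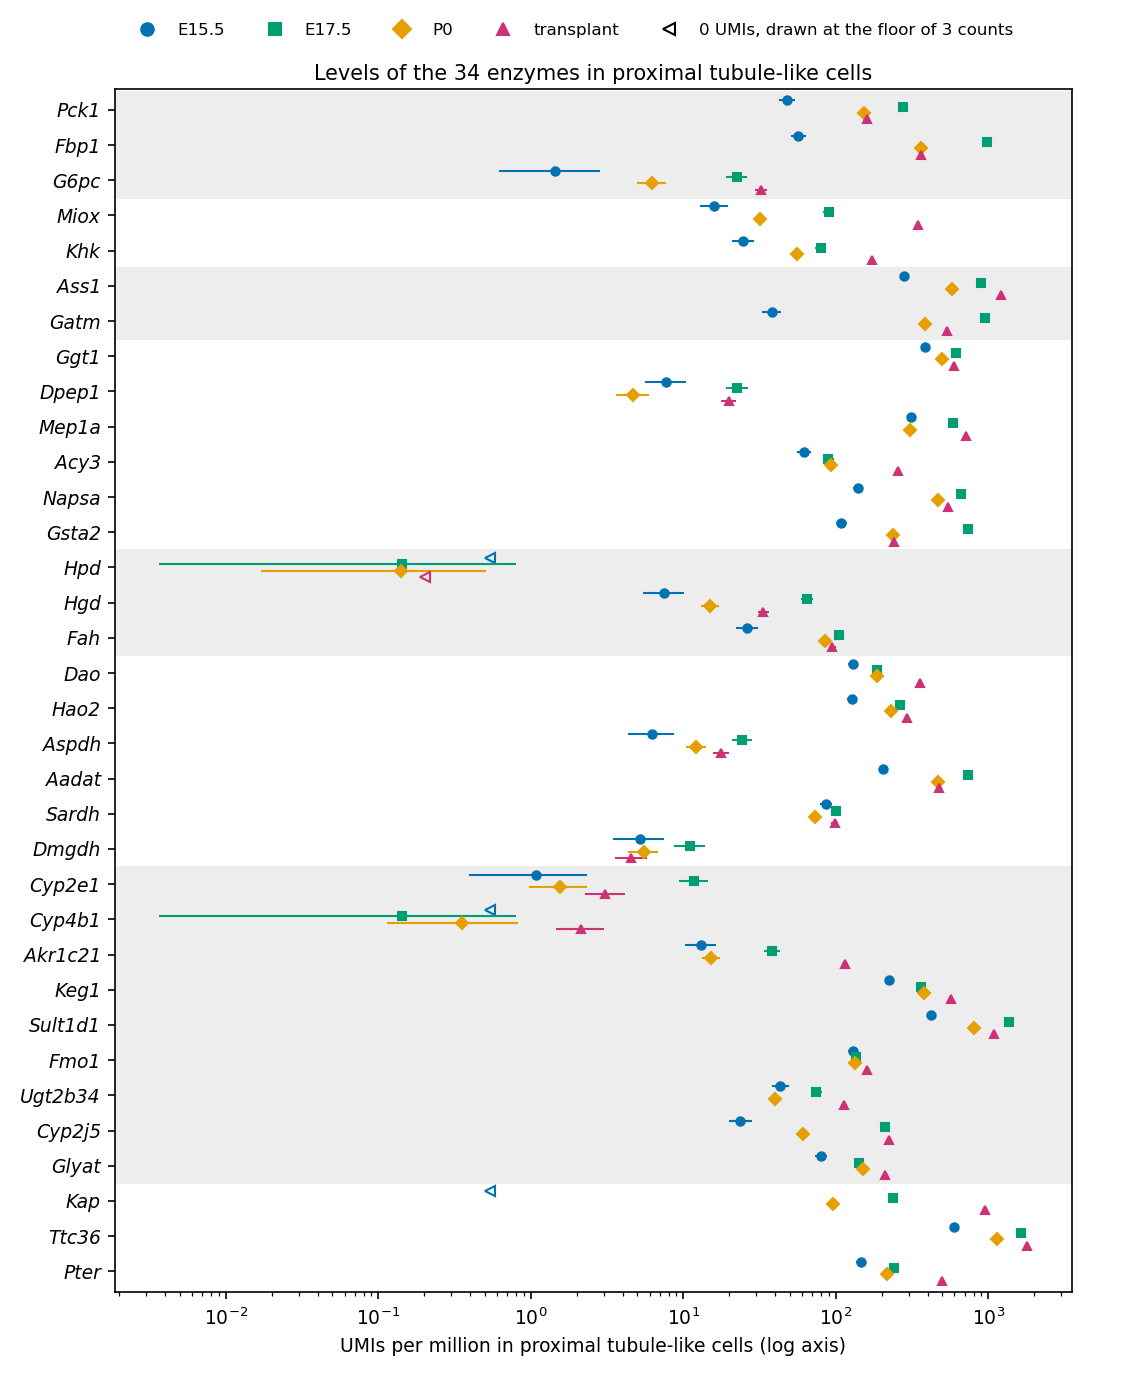
CPM (log axis) of each of the 34 genes in proximal tubule-like cells, 1 point per library with its 95% counting interval, and open triangles at a floor of 3 counts for 0 UMIs. E15.5 is the lowest of the 4 libraries for most genes, and Kap runs from 0 UMIs at E15.5 to 953 CPM in the transplant.

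The list was largely a proximal tubule list in these libraries, with a few exceptions. Proximal tubule-like cells had the highest CPM of the 11 or 12 classes compared for 29 of the 34 genes in the E15.5 library, 31 for E17.5, 30 for P0 and 31 for the transplant. Only classes with at least 20 cells in a library were compared, and the highest genes include Hpd at E17.5 on 1 UMI. Among genes with at least 20 UMIs over both classes, proximal tubule-like cells stood at least 10-fold above the next class for 16, 25, 22 and 11. Cyp2e1 at E17.5, with 82 UMIs, is left out of this count because no other class held a UMI of it. Endothelium-like cells, taken as cells that should lack most of these enzymes, gave 0.00898%, 0.0138%, 0.0132% and 0.0410% of their UMIs to the list. With every cell thinned to 3000 UMIs, a proximal tubule-like cell held UMIs of a median of 6, 12, 9 and 13 of the 34 genes and an endothelium-like cell of 0, 0, 0 and 1. Before thinning, the endothelium-like cells had medians of 25544, 9496, 8614 and 6619.5 UMIs. Erythroid-like cells were left out of this comparison, because those of E17.5 and P0 held 0% and 0.0192% globin UMIs against 88.0% at E15.5. With them included, 18 genes instead of 30 were highest in proximal tubule-like cells at P0.

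Cyp4b1, a cytochrome P450, was an endothelial gene here. It had 3.09, 19.4, 24.7 and 121 CPM in endothelium-like cells and 0, 0.144, 0.353 and 2.15 CPM in proximal tubule-like cells, where 0 UMIs at E15.5 allow up to 0.537 CPM. Hpd, the second enzyme of tyrosine breakdown, had 0, 1, 2 and 0 UMIs in proximal tubule-like cells and was not measurable. Dpep1, a membrane dipeptidase that cuts cysteinyl-glycine, was higher in stroma-like than in proximal tubule-like cells in 3 libraries, with 30.1 against 22.5 CPM at E17.5, 35.8 against 4.66 at P0 and 163 against 19.8 in the transplant. Khk, ketohexokinase, was higher in macrophage-like than in proximal tubule-like cells at E15.5 (83.7 against 24.7 CPM) and E17.5 (120.4 against 79.4 CPM). At P0 nephron progenitor-like cells had 60.4 CPM of Khk against 55.2. Gatm at E15.5 stood at 368 CPM in macrophage-like and 38.0 in proximal tubule-like cells, and at E17.5 and in the transplant the proximal tubule-like level was the highest, 2.57-fold [1.99, 3.39] and 2.73-fold [2.31, 3.26] above macrophage-like cells. At P0 there was 1 macrophage-like cell, so that class was not compared.

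**Figure D2:**
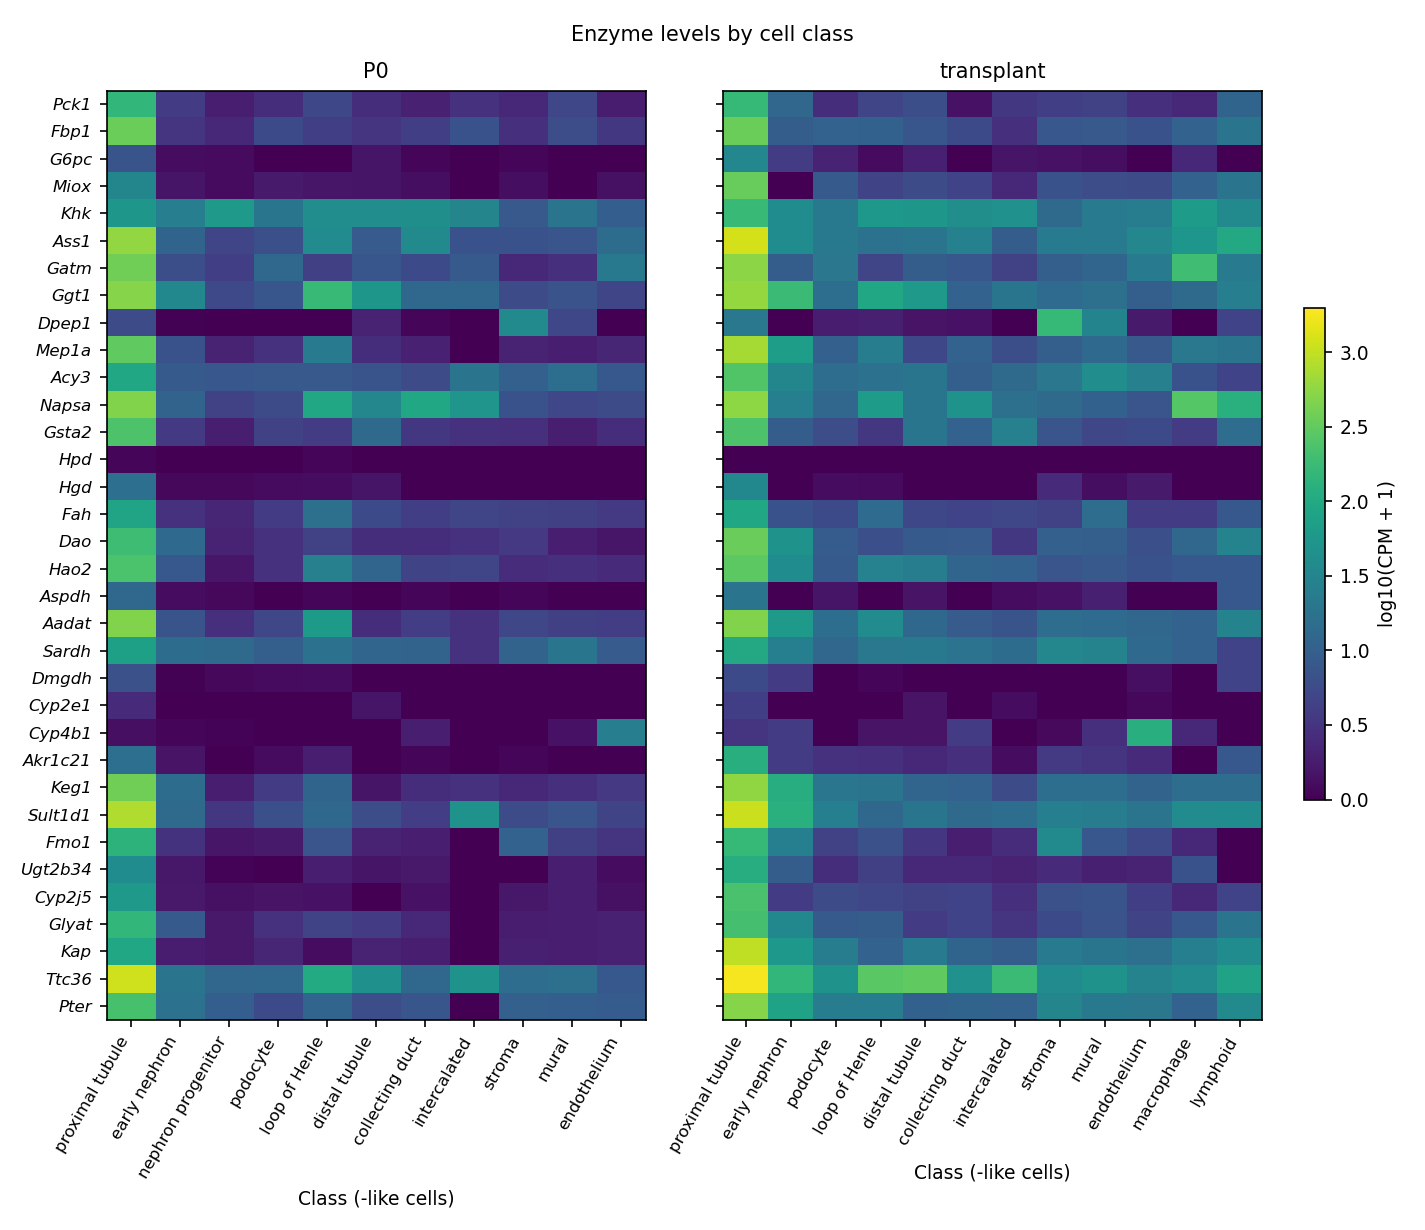
Level of each of the 34 genes, as log10(CPM + 1) on the color scale, in named classes of the P0 and the transplant library, with erythroid-like cells left out. The proximal tubule column is brightest in most rows, and Dpep1 (stroma) and Cyp4b1 (endothelium) have their highest level elsewhere.

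Between the libraries labeled ICR, the list was higher in the newborn than in the E15.5 proximal tubule. Of 32 measured genes, 12 were at least 2-fold higher at P0 and 0 at least 2-fold lower, against 6.74% higher and 7.89% lower of 11838 genes. Hpd and Cyp4b1 did not reach 20 UMIs. The median log2 ratio was 0.93 over the measured genes of the list and -0.08 over all genes. Of the 17 transporter genes used below to order the cells, 1 was 2-fold higher and 3 lower, with a median of -0.11. The stress genes were higher at P0 as well, 9 of 12 at least 2-fold, and their part in the result was not tested. The count of 12 rests on the cutoff: Miox (1.996) and Hgd (1.998) lay just under 2-fold, and it became 17 with ratios centred on the median of all genes and 19 with coarser clusters. Over 10 alternative settings it ranged from 9 to 19. The share of all genes was not computed under these settings, so these counts have no background beside them. E17.5 lay higher still. Against E15.5, 22 of 32 genes were at least 2-fold higher and 0 lower (7.01% and 8.05% of all genes), with a median log2 ratio of 1.67. Directly between P0 and E17.5, 13 of 32 genes were at least 2-fold lower at P0 and 0 higher (3.49% and 5.41% of all genes). The levels thus did not follow age across the 3 libraries in situ, of which E17.5 also differs in strain label. E17.5 held the largest share of cells in the cluster led by Slc22a19, 67.8% against 46.4% at P0. Within that cluster E17.5 was still above P0 for most of the list, with Fbp1 at 1318 against 646 CPM and Gatm at 1250.3 against 655. Acy3, Dao, Hao2, Keg1, Fmo1, Fah, Glyat and Pter were higher at P0 there, as were Hpd and Cyp4b1 on few UMIs. The part of cluster shares or strain was not tested.

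The gluconeogenesis genes were among those that differed most. Fbp1 codes for fructose-1,6-bisphosphatase (chr13:62864753-62888282, minus strand, GRCm38) and stood at 56.8, 982, 362 and 360 CPM. It was 6.38-fold [5.70, 7.17] higher at P0 than at E15.5. Pck1, which codes for cytosolic phosphoenolpyruvate carboxykinase, the entry step of the pathway, had 48.2, 277, 153 and 161 CPM, 3.17-fold [2.79, 3.61] higher at P0 than at E15.5. G6pc, the catalytic subunit of glucose-6-phosphatase, releases the free glucose and was rare throughout, with 1.43, 22.4, 6.21 and 32.4 CPM. Its ratio of P0 to E15.5, 4.33 [2.11, 10.3], rests on 88 and 8 UMIs. All 3 genes were thus higher at P0 than at E15.5, and of them only G6pc was higher again in the transplant, 5.22-fold [4.15, 6.63] over P0.

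The arginine and creatine genes were both higher at P0 than at E15.5. Gatm codes for arginine:glycine amidinotransferase, the first enzyme of creatine synthesis (chr2:122594467-122611303, minus strand), and had 38.0, 946, 383 and 533 CPM. Its level at P0 was 10.1-fold [8.80, 11.6] that at E15.5, the widest ratio of the list among genes detected at both ages. E15.5 also lay lowest within 1 cluster: in the one led by Slc22a19, Gatm had 81.6 CPM for E15.5, 1250.3 for E17.5 and 655 for P0. Ass1, argininosuccinate synthase, by which the tubule turns citrulline into arginine, had 281, 891, 576 and 1209 CPM. Its ratios were 2.05 [1.94, 2.17] for P0 to E15.5 and 2.10 [2.05, 2.16] for the transplant to P0.

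Of the inositol and fructose enzymes, Miox (myo-inositol oxygenase, chr15:89334398-89337015, plus strand) had 15.9, 89.9, 31.8 and 344 CPM. The transplant was 10.8-fold [9.81, 11.9] above P0 and 3.82-fold [3.52, 4.16] above E17.5. Khk, which phosphorylates fructose, had 24.7, 79.4, 55.2 and 173 CPM. It was 2.23-fold [1.86, 2.70] higher at P0 than at E15.5 and 3.13-fold [2.88, 3.39] higher in the transplant than at P0. For both genes the transplant was the highest library and E15.5 the lowest.

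In the glutathione and peptide group 2 of 6 genes were at least 2-fold higher at P0 than at E15.5. Napsa, an aspartic protease, had 140.2, 661, 471 and 544 CPM and a P0 to E15.5 ratio of 3.36 [3.12, 3.62]. Gsta2, a glutathione S-transferase, had 109, 733, 238 and 241 CPM and a ratio of 2.19 [2.004, 2.39]. The brush-border enzymes were flatter. Ggt1, gamma-glutamyltransferase, which begins the breakdown of glutathione outside the cell, had 387, 614, 499 and 596 CPM and 1.29-fold [1.23, 1.35] at P0 over E15.5. The metalloprotease meprin alpha, Mep1a, had 311, 591, 308 and 715 CPM, with a P0 to E15.5 ratio of 0.992 [0.938, 1.05]. Acy3, which removes acetyl groups from mercapturic acids, had 62.1, 89.5, 92.8 and 255 CPM. For Mep1a and Acy3 the transplant exceeded P0 by 2.32-fold [2.24, 2.40] and 2.74-fold [2.58, 2.92]. Dpep1 had 7.70, 22.5, 4.66 and 19.8 CPM, and its P0 to E15.5 ratio of 0.605 [0.406, 0.910] was the lowest of the 32 measured genes.

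Tyrosine breakdown was read through its last members. Hgd, homogentisate dioxygenase, had 7.52, 65.1, 15.03 and 33.5 CPM, and Fah, fumarylacetoacetase, the final enzyme, had 26.1, 104.3, 84.8 and 94.9 CPM. Fah was 3.24-fold [2.73, 3.88] higher at P0 than at E15.5. Of the other amino acid enzymes only Aadat passed 2-fold between those ages. It codes for aminoadipate aminotransferase, which acts on lysine and kynurenine (chr8:60505932-60545677, plus strand), and had 204, 733, 471 and 474 CPM, a ratio of 2.31 [2.17, 2.46]. Dao, the D-amino acid oxidase, had 129, 187, 185 and 354 CPM, and Hao2, a peroxisomal hydroxyacid oxidase, had 128, 263, 228 and 295 CPM. Aspdh, named for an aspartate dehydrogenase domain, had 6.27, 24.4, 12.1 and 17.6 CPM. The mitochondrial enzymes that turn dimethylglycine and sarcosine into glycine were not at least 2-fold apart between P0 and E15.5. Sardh had 86.3, 99.7, 73.4 and 98.4 CPM and Dmgdh had 5.19, 11.1, 5.50 and 4.56 CPM.

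Among the oxidases and conjugating enzymes only Cyp2j5, an epoxygenase of fatty acids, passed 2-fold between E15.5 and P0. It had 23.6, 210.0, 60.7 and 223 CPM, 2.57-fold [2.14, 3.11] higher at P0 than at E15.5. Sult1d1, a sulfotransferase, had 424, 1362, 811 and 1090.0 CPM and a ratio of 1.91 [1.83, 2.001]. Akr1c21, an aldo-keto reductase of steroids (chr13:4574075-4586541, plus strand), had 13.1, 38.2, 15.2 and 115 CPM. E17.5 was 2.92-fold [2.25, 3.84] and P0 1.16-fold [0.886, 1.53] the E15.5 level, and the transplant was 7.56-fold [6.56, 8.75] above P0. Ugt2b34, a glucuronosyltransferase, had 43.3, 74.7, 39.8 and 113 CPM. Keg1 and Glyat, related to glycine acyltransferases, had 223, 361, 378 and 566 CPM and 80.2, 142, 151 and 212 CPM. Fmo1, a flavin monooxygenase, differed least between its lowest and highest library, at 130.2, 135, 133 and 161 CPM. Cyp2e1 had 6, 82, 22 and 46 UMIs, which is 1.07, 11.8, 1.55 and 3.08 CPM, and was highest at E17.5.

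Kap, an abundant protein of mouse proximal tubule known for its control by androgen (chr6:133849851-133853762, minus strand), was the only gene of the list to go from 0 to a high level. It had 0 of 5583667 UMIs in proximal tubule-like cells at E15.5, with a 95% upper limit of 0.661 CPM. In the other libraries it had 237, 95.2 and 953 CPM. With the 0 UMIs set to a floor of 3 counts (0.537 CPM), P0 was 177-fold above E15.5. In the transplant Kap was 10.0-fold [9.46, 10.6] higher than at P0. Y-linked UMIs were found in 50.5% of the E15.5 proximal tubule-like cells, 0% of the E17.5, 0.337% of the P0 and 73.4% of the transplant cells. Sex cannot be told apart from the groups, and its part in the Kap levels was not tested. After thinning to 3000 UMIs, 10.6% of the E17.5, 6.00% of the P0 and 31.4% of the transplant cells held a Kap UMI (15.5%, 11.6% and 42.9% unthinned), against 0.601%, 0.185% and 6.90% of endothelium-like cells. Ttc36, a tetratricopeptide repeat protein, had 600.1, 1639, 1137 and 1802 CPM and gave the most UMIs of the list in every library, 13.7% to 16.0% of its sum. Pter, named as related to phosphotriesterase, had 146, 242, 216 and 494 CPM. The transplant was the highest library for all 3 genes.

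To ask whether the enzymes go with the transporters in the same cells, proximal tubule-like cells were thinned to 3000 UMIs and ordered by their summed UMIs of 17 transporter genes, none of them in the list. Cells with at most 2 such UMIs are called transporter-low and those with more than 9 transporter-high. These limits divide the cells into 3 equal parts with libraries weighted equally. They mark a range of a score and not a cell type: 83, 127, 274 and 128 cells lay next to the lower limit. Slc34a1 weighs most in the score, as the highest of the 17 genes in each library, at 472, 1150, 748 and 2418 CPM. All 17 together made up 0.132%, 0.294%, 0.163% and 0.420% of proximal tubule-like UMIs. Transporter-low cells were 109 of 197 in the E15.5 library (55.3%), 174 of 680 for E17.5 (25.6%), 385 of 867 for P0 (44.4%) and 106 of 986 for the transplant (10.8%). Transporter-high cells were 21 (10.7%), 282 (41.5%), 128 (14.8%) and 591 (59.9%). Osr2, a gene of the forming tubule, was lower in transporter-high than in transporter-low cells in all 4 libraries, at 59.0 against 459.6 CPM (E15.5), 86.2 against 750.3 (E17.5), 103 against 373 (P0) and 100.1 against 294 (transplant). Hdc and Cpn1, listed beside Osr2 as genes of immature tubule, were instead higher in transporter-high cells in all 4.

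**Figure D3:**
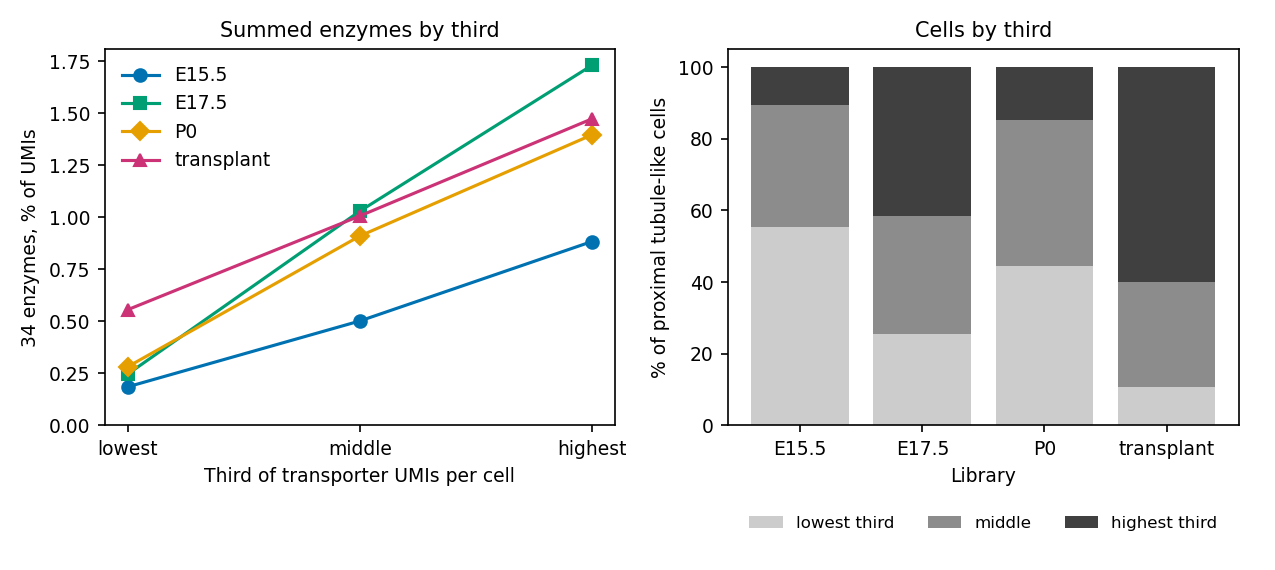
Left, summed UMIs of the 34 genes as a percent of all UMIs of the cells in the lowest, middle and highest of 3 ranges of transporter UMIs, 1 line per library. Right, percent of proximal tubule-like cells in each range. The lines climb from 0.185% to 0.884% (E15.5), 0.247% to 1.73% (E17.5), 0.282% to 1.40% (P0) and 0.556% to 1.47% (transplant).

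The enzymes were higher in transporter-high cells of every library. At P0, 29 of 31 measured genes were at least 2-fold higher there than in transporter-low cells and 0 lower, against 9.68% higher and 15.5% lower of 10612 genes. At E15.5 it was 25 of 26 (11.1% of all genes higher and 11.8% lower), with 8 of the 34 under 20 UMIs, at E17.5 30 of 32 (12.3% and 18.5%) and in the transplant 21 of 32 with 1 lower (5.27% higher and 9.45% lower). Median log2 ratios over the list were 2.27 (E15.5), 2.70 (E17.5), 2.29 (P0) and 1.56 (transplant). Over all genes they lay between -0.22 and -0.01. The stress genes summed to less in transporter-high than in transporter-low cells, 3925 against 6397 CPM at P0 and 2368 against 5232 in the transplant. Their part was not tested. The result is tied to this way of ordering cells. With cells split by whether they held a UMI of Osr2, 10 of 32 genes at P0 were at least 2-fold higher in cells without one and 0 lower (2.16% and 3.11% of all genes), and in the transplant 4 of 33 were higher and 1 lower (2.89% and 1.65%). With the split on Osr2, Hdc and Cpn1 together, 2 of 32 were higher and 4 lower at P0 (1.69% and 2.96% of all genes). In the transplant 3 of 33 were then higher and 9 lower (5.71% and 4.64%). The median log2 ratio over the list turned to -0.13 at P0 and -0.61 in the transplant. As Hdc and Cpn1 were themselves higher in transporter-high cells, this split can set such cells beside those with Osr2. The part of this in the turn was not tested.

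Miox, Hgd and G6pc were steep in all 4 libraries. Miox had 1.71, 0, 1.73 and 10.4 CPM in transporter-low cells against 109, 169.6, 130.3 and 567 CPM in transporter-high cells. At P0 this was a ratio of 75.4 [40.4, 159], on 288 and 10 UMIs. Hgd had 0.685, 1.40, 0.518 and 2.08 CPM in the low cells and 27.8, 113, 50.2 and 52.6 CPM in the high ones. G6pc, with at most 3 UMIs in the low cells of any library, had 8.68, 38.7, 22.2 and 54.3 CPM in the high ones. Dpep1, with 4, 0, 1 and 2 UMIs in the low cells, had 34.7, 41.5, 17.2 and 33.0 CPM in the high ones. Not every steep gene was steep throughout. Cyp2j5 had 5.48, 6.28, 7.60 and 102 CPM in the low cells and 130, 382, 196 and 279 CPM in the high ones. It was thus flatter in the transplant. Gatm and Fbp1 were steep in each library. Transporter-low cells had 13.5%, 3.53%, 4.32% and 9.86% of the transporter-high level of Gatm. For Fbp1 they had 6.04%, 2.53%, 4.88% and 8.82%. Gatm at P0 went from 47.0 to 1087 CPM, a ratio of 23.1 [20.4, 26.3], and Fbp1 from 50.3 to 1029.7 CPM, a ratio of 20.5 [18.1, 23.2]. Sardh was among the flattest, with ratios of 2.14, 2.61, 2.16 and 1.86.

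Aadat was highest in the cells between the 2 limits in all 4 libraries. Other genes had their highest level there in single libraries or a pair of them, among them Ugt2b34 at E15.5 and E17.5, Keg1 at E17.5, Akr1c21 at P0, and Mep1a, Napsa and Kap in the transplant. From transporter-low over middle to transporter-high cells Aadat went 61.7, 382 and 286 CPM for E15.5. For E17.5 it was 292, 1191 and 603, for P0 341, 640.1 and 353, and for the transplant 593, 829 and 249 CPM. Its ratio of high to low cells was 4.64 [3.73, 5.77] for E15.5 and 2.07 [1.86, 2.30] for E17.5. It was 1.035 [0.951, 1.12] for P0 and 0.420 [0.388, 0.455] for the transplant. With the split on Osr2 alone the transplant value turned to 2.37. Kap climbed through the 3 ranges at E17.5 (0, 49.2 and 475 CPM) and P0 (11.9, 117 and 255 CPM). In the transplant it was highest in the middle, at 400.1, 1421 and 765 CPM.

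Transporter-high cells alone were compared between P0 and E15.5 as well. Of 31 measured genes 8 were at least 2-fold higher at P0 and 2 lower, against 7.97% and 9.54% of 8415 genes, and the median log2 ratio was 0.58. Of the 12 stress genes 8 were at least 2-fold higher at P0 in these cells, and their part was not tested. Centred on the median of all genes it was 10 higher and 1 lower. The comparison rests on 21 cells and 576246 UMIs at E15.5, and with cells thinned to 1500 UMIs instead, 14 genes were higher. The share of all genes was not computed for the centred or the thinned count. Gatm stayed the widest ratio between detected levels, with 115 against 1087 CPM, 9.49-fold [7.43, 12.3]. Fbp1 had 233 against 1029.7 CPM, 4.43-fold [3.72, 5.31], and Pck1 137 against 328 CPM, 2.39-fold [1.89, 3.05]. G6pc, Khk, Fah and Aspdh were the others at 2-fold or more besides Kap, which had 0 and 564 UMIs, 49.0-fold above the floor of 3 counts. Miox had 109 and 130.3 CPM, 1.19-fold [0.910, 1.59]. Mep1a stood at 0.588 [0.526, 0.659], above the lower limit, and Akr1c21 and Dpep1 were the genes lower at P0, at 0.460 [0.246, 0.889] and 0.495 [0.281, 0.899]. For E17.5 against E15.5, 17 of 32 genes were higher and 0 lower in these cells (7.61% and 9.1% of 8870 genes), with Gatm at 13.4-fold [10.6, 17.4]. In transporter-low cells, P0 exceeded E15.5 at least 2-fold for 7 of 26 genes (7.5% of all, with 0 lower against 6.86%), among them Aadat at 5.53-fold [4.74, 6.48] and Napsa at 4.50-fold [3.76, 5.41].

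**Figure D4:**
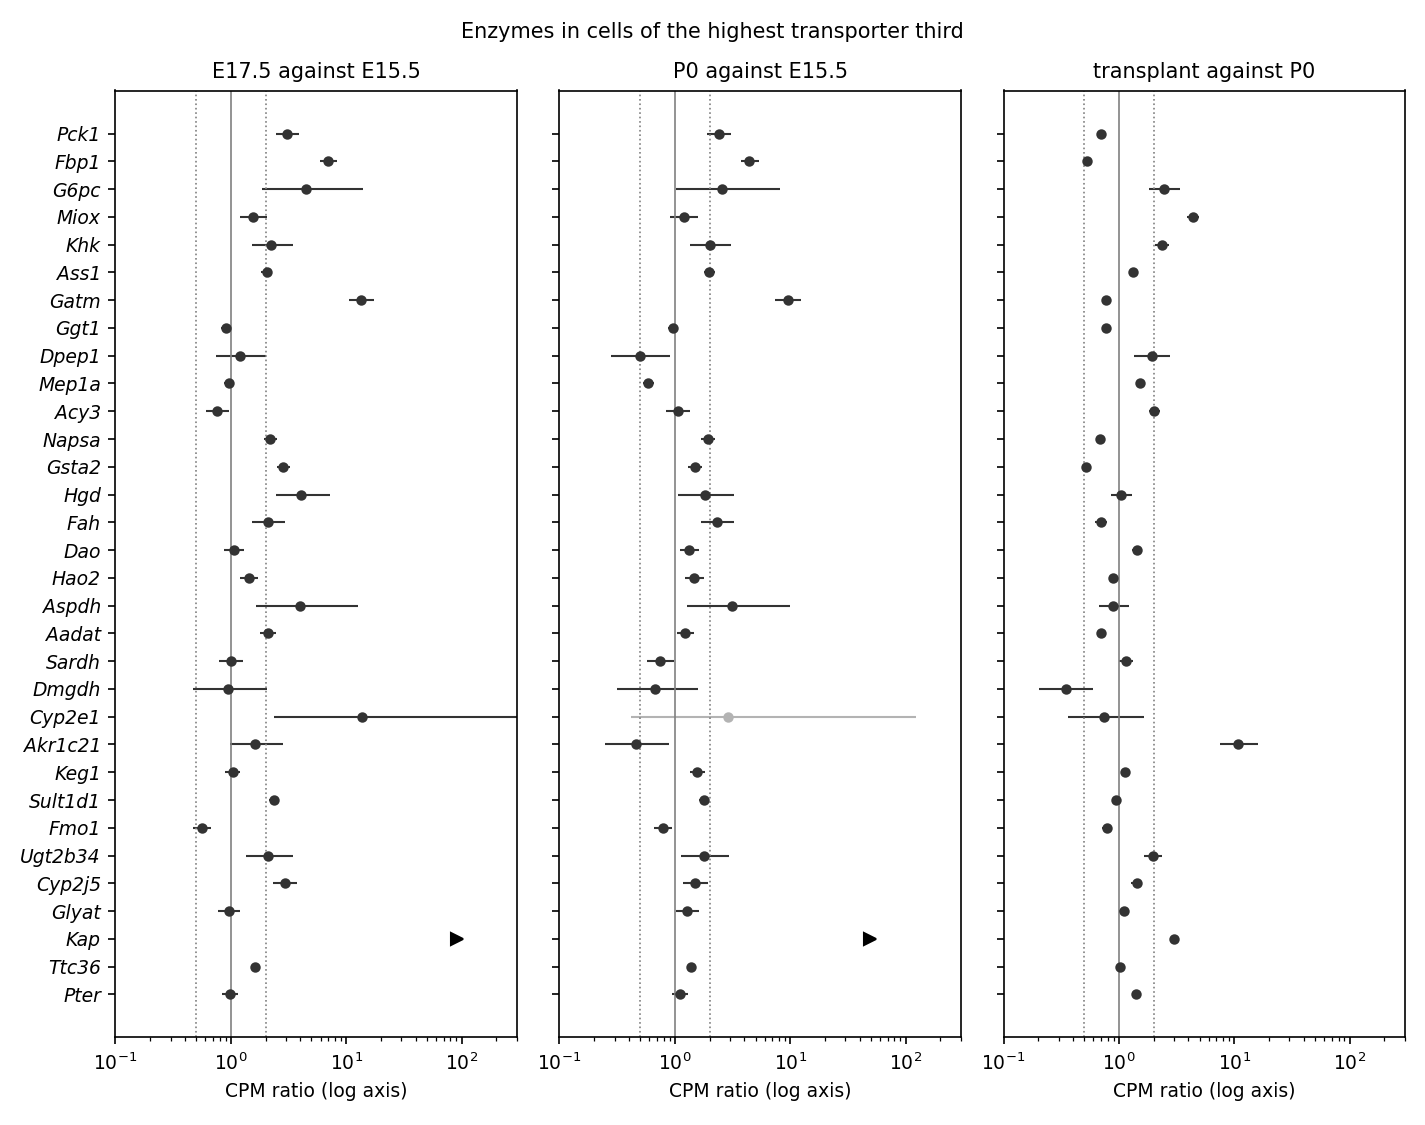
Ratio of CPM (log axis) in transporter-high cells, the highest of 3 ranges, for E17.5 against E15.5, P0 against E15.5 and transplant against P0, with 95% counting intervals. Arrowheads are ratios of Kap to a floor of 3 counts, the gray point has under 20 UMIs, dotted lines are the 2-fold limits, and Hpd and Cyp4b1 are left out. Gatm and Fbp1 lie far right in the first 2 panels and Akr1c21 and Miox in the last.

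The transplant had more of a part of the list than the newborn kidney. Of 33 measured genes 14 were at least 2-fold higher than at P0 and 0 lower, against 12.4% and 7.04% of 12261 genes. The median log2 ratio was 0.66 over the list and 0.21 over all genes, and 11 genes were higher when ratios were centred on the latter. Of the 17 transporter genes 9 were higher and 0 lower. Leading ratios were those of Miox, Kap, Akr1c21, Cyp4b1 (32 and 5 UMIs), G6pc and Dpep1, from 10.8 down to 4.26. That of Cyp4b1 was 6.08 [2.35, 20]. Its level lay below that of endothelium-like cells in both libraries. Subtracting that level left only the floor of 3 counts on each side, so no ratio could be read. Fbp1, Pck1, Gsta2, Aadat and Dmgdh lay between 0.829 and 1.06. In transporter-high cells 6 of 32 genes were higher and 1 lower (14.6% and 3.76% of 10776 genes), or 4 and 3 after centring, and the median log2 ratio was 0.11 against 0.25 over all genes. The 6 were Akr1c21 at 10.7-fold [7.47, 16.0], Miox at 4.35-fold [3.86, 4.92], Kap at 3.00-fold [2.75, 3.28], G6pc, Khk and Acy3. Dmgdh was lower at 0.345 [0.201, 0.599], on 34 and 26 UMIs, and Gsta2 and Fbp1 lay just above the lower limit at 0.513 and 0.526. With cells without an Osr2 UMI in place of transporter-high cells, 13 of 33 genes were higher and 0 lower. The share of all genes was not computed for that comparison, so these counts have no background beside them.

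Against E17.5, which has a C57BL/6 label too, the transplant was higher at least 2-fold for 7 of 33 genes and lower for 4 (12.6% and 5.48% of 11871 genes), or 5 and 5 after centring. Higher were Cyp4b1 (32 and 1 UMIs, below the endothelium-like level in both libraries), Kap, Miox, Akr1c21, Acy3, Khk and Pter. Lower were Cyp2e1, Gsta2, Fbp1 and Dmgdh. Kap was 4.01-fold [3.81, 4.23] higher. Gsta2 had 733 CPM at E17.5 and 241 in the transplant, a ratio of 0.329 [0.315, 0.344]. In transporter-high cells 4 genes were higher and 6 lower (17.2% and 4.41% of 10850 genes). The median log2 ratio there was -0.20 over the list and 0.25 over all genes. Among the higher genes, Akr1c21 stood at 3.05-fold [2.57, 3.63] and Miox at 3.34-fold [3.06, 3.66]. The lower genes were Cyp2e1, Gsta2, Fbp1, Dmgdh, Aadat and Hgd, with Gsta2 at 1217 CPM at E17.5 and 328 in the transplant. All of these comparisons share libraries with one another.

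Within the transplant the list divided between its 2 main clusters. One, of 705 cells, had 190.4 CPM of Slc5a1 and 60.5 of Slc7a13 against 5.01 and 3.87 in the other, of 357 cells, which had 350 CPM of Slc5a2 and 277 of Slc5a12 against 24.1 and 14.2. Of 33 measured genes 6 were at least 2-fold higher in the first and 10 in the second (8.56% and 4.01% of 11351 genes). Kap had 1321 CPM in the cluster with Slc5a1 and 13.9 in the one with Slc5a2, a ratio of 95.2 [74.1, 125]. Aadat had 628 and 81.2 CPM, a ratio of 7.74 [6.95, 8.63]. Dmgdh, Mep1a, Napsa and Pter were the others on that side. In the cluster with Slc5a2, Dpep1 had 51.9 against 6.16 CPM, 8.42-fold [6.34, 11.3] higher. G6pc had 80.3 against 12.3 CPM, 6.52-fold [5.30, 8.05], and Gatm 1320.2 against 205 CPM, 6.43-fold [6.12, 6.77]. Ugt2b34, Gsta2, Miox, Ass1, Fbp1, Hgd and Pck1 were higher there as well, from 4.98-fold to 2.08-fold. All 3 gluconeogenesis genes and both arginine and creatine genes thus lay higher in the cells with Slc5a2. The clusters were made without the 34 genes but from the same cells, and the split is a description of 1 library.

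**Figure D5:**
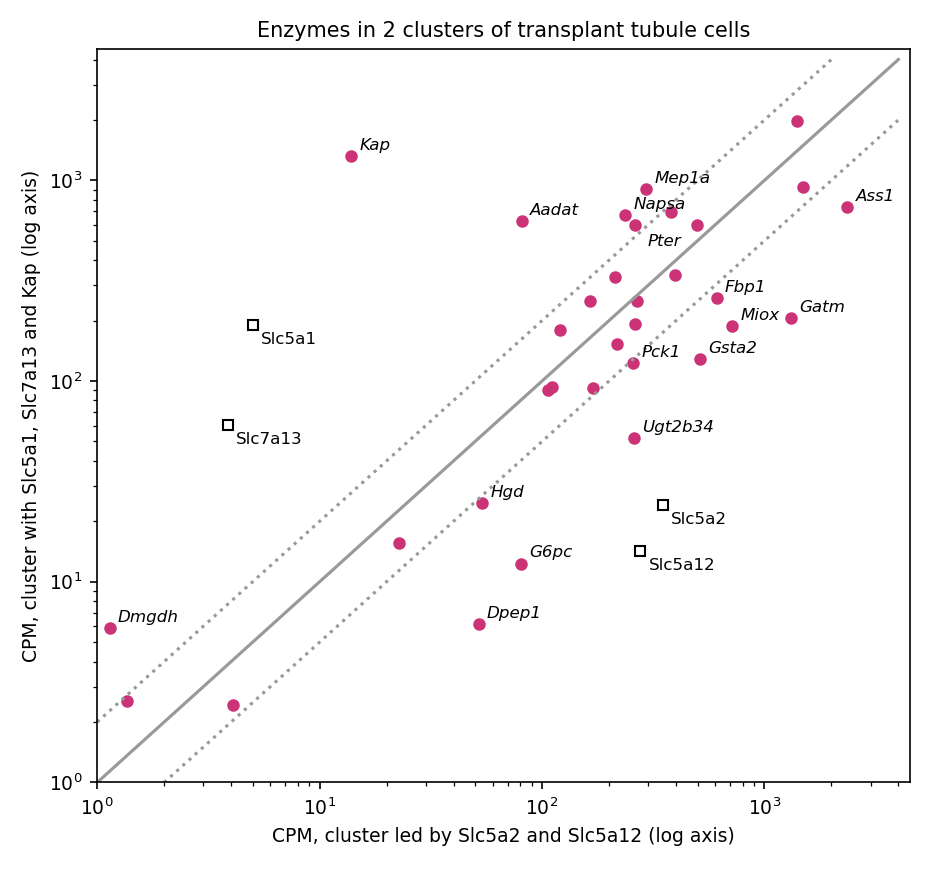
CPM (log axes) of the 34 genes except Hpd in the 2 main transplant clusters, the one with Slc5a1, Slc7a13 and Kap on the vertical and the one led by Slc5a2 and Slc5a12 on the horizontal axis. Open squares are transporters, the solid line marks equal levels and the dotted lines 2-fold. Kap and Aadat lie far above the lines and Gatm, G6pc and Dpep1 far below.

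Of 48 other genes of these pathways and their regulators, 44 were measured between P0 and E15.5. At P0, 9 were at least 2-fold higher and 2 lower (6.74% and 7.89% of all genes). Their median log2 ratio was 0.23, against -0.08 over all genes. Against P0 the transplant had 10 of 44 higher and 2 lower (12.4% and 7.04% of all genes), median 0.44 against 0.21 over all genes. Gpx3, the secreted glutathione peroxidase, led both: it had 97.4, 1042, 388 and 2841 CPM, with ratios of 3.98 [3.64, 4.36] and 7.32 [7.12, 7.53]. Gnmt, glycine N-methyltransferase, was 3.68-fold [1.85, 8.32] higher at P0 than at E15.5 and lower in the transplant than at P0, at 0.487 [0.329, 0.711]. Gstm1, a glutathione S-transferase, was 5.06-fold [4.78, 5.37] higher in the transplant than at P0, and Gldc of the glycine cleavage system was lower at 0.441 [0.280, 0.680]. Tat and Tdo2, liver enzymes of tyrosine and tryptophan, had 0 UMIs in proximal tubule-like cells of all 4 libraries.

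Most of the regulators described here were within 2-fold between P0 and E15.5. Hnf4a had 206, 164, 129 and 196 CPM and a P0 to E15.5 ratio of 0.628 [0.583, 0.676]. Hnf4g, which was more than 2-fold lower at P0, had 24.9, 9.34, 10.2 and 27.4 CPM and a ratio of 0.411 [0.323, 0.522]. Maf had 421, 268, 222 and 342 CPM, Nr3c1, the glucocorticoid receptor, 100.7, 72.5, 66.2 and 88.1 CPM, and Nr1h4, the bile acid receptor, 11.1, 23.7, 16.9 and 30.6 CPM. The regulators of oxidative metabolism differed little across the libraries. Ppara had 7.52, 8.76, 7.05 and 8.32 CPM, Ppargc1a 51.8, 57.5, 48.5 and 57.0 CPM, and Esrra 43.2, 48.7, 39.8 and 43.5 CPM. Cebpa was rare, with 2.33, 2.59, 7.90 and 5.83 CPM, and passed 2-fold, with 3.39-fold more at P0 than at E15.5 [1.91, 6.57], on 112 and 13 UMIs.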

How the data were processed

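Droplet libraries (10x 3′ v2) gave a matrix of UMI counts per gene and cell for each of the 4 libraries. The deposited counts were made by the authors with Cell Ranger 3.1.0 on GRCm38, per the submitters' processing notes, while per the file headers the E15.5 and P0 matrices came from version 3.0.2 and the others from 3.1.0. They were used as deposited. Another matrix, joining 3 libraries, was not used here. Handling of strand and of near-identical genes is not given in the sources used here.

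Cells with fewer than 500 genes or more than 20% mitochondrial UMIs were dropped (465 to 1980 and 128 to 738 barcodes a library). The cells with the highest Scrublet scores were removed as likely doublets, 0.8% per 1000 cells. The 4 libraries were clustered together (scanpy 1.11.5, scikit-learn 1.9.0, python-igraph 0.11.9, numpy 2.4.6, Python 3.11.15) on 2000 variable genes without the 34 genes, 40 components, 15 neighbours and a Leiden resolution of 1.5. A cluster was named X-like from at least 3 markers at 2-fold or more. UMIs were summed per class and library and scaled to CPM. Ratios have exact conditional binomial 95% intervals, and levels exact Poisson ones. A level of 0 was set to a floor of 3 counts for ratios, which is not its 95% limit. PCR duplicates were removed through UMIs, and intervals cover counting error only. No p-values were computed, since each group is 1 library. The interval calculation was run on simulated counts drawn with the counting error that it assumes. That run checks the calculation only, and not spread between cells or libraries.

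Members and lists were chosen with earlier results of these data known. All 34 genes are described. Of 48 related genes, the 2 highest and 2 lowest ratios with at least 50 UMIs and the regulators are named, except some that are not reported here. Promoters with HNF4 letters are printed. The alternatives were other cell filters, clusterings, scalings, count minimums, background subtraction and ways to order cells. Splitting cells on Osr2 alone and including erythroid-like cells were chosen after seeing the data.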

Additional observations from a re-analysis of the deposited data

Results flagged for a closer look

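Aadat was higher in transporter-high than in transporter-low cells at E15.5, with a ratio of 4.64, and at E17.5, with a ratio of 2.07, and lower in the transplant, with a ratio of 0.420. These libraries thus lay on opposite sides of 1. The difference between them was not tested, and each ratio rests on 1 library.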

How the results depend on the processing

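No paired analysis was possible because each group is 1 library. Of 2913 ratios of single genes recomputed under 13 alternative settings (the 2 chosen after seeing the data aside), 2197 stayed within their counting interval, 672 moved beyond it and 44 that had been past 2-fold changed side of 1. For the 8 counts of genes at least 2-fold higher, the ones below moved by over 1.5 times, and the cause was not tested. With a Leiden resolution of 0.8 the count for P0 against E15.5 was 19 instead of 12. Between transporter-high and transporter-low cells it was 29 at P0 and 21 in the transplant. With cells split by a UMI of Osr2, Hdc or Cpn1 it was 2 and 3, and with cells split on Osr2 alone 10 and 4. In transporter-high cells the count for P0 against E15.5, 8, became 15 with the split on the 3 genes and 14 with thinning to 1500 UMIs. That for the transplant against P0, 6, became 13 with the split on Osr2 alone. The other recomputed counts were within 1.5 times of the reported ones. Among the alternative settings, the share of all genes was computed only for splits on marker UMIs between cells of the same library. The other recomputed counts, those after centring included, have no background beside them.

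With the endothelium-like level subtracted, Cyp4b1 turned to 0.951 for the transplant against P0 and 0.467 against E17.5. With the split on Osr2, Hdc and Cpn1, ratios of cells without such a UMI to cells with one turned at P0 for Miox (0.727), Pck1 (0.511), Fbp1 (0.793), G6pc (0.379), Dpep1 (0.816), Ass1 (0.736), Acy3 (0.914), Gatm (0.607), Gsta2 (0.931), Dao (0.849), Hao2 (0.976), Keg1 (0.853), Aspdh (0.624), Sult1d1 (0.477), Fmo1 (0.910), Ugt2b34 (0.221), Hgd (0.812), Fah (0.895), Glyat (0.937) and Pter (0.988). In the transplant they turned for Miox (0.288), Pck1 (0.381), Fbp1 (0.402), G6pc (0.206), Ggt1 (0.759), Dpep1 (0.466), Ass1 (0.444), Ttc36 (0.605), Acy3 (0.560), Gatm (0.290), Akr1c21 (0.636), Gsta2 (0.640), Khk (0.655), Dao (0.614), Keg1 (0.702), Aspdh (0.566), Sult1d1 (0.316), Hgd (0.621), Fah (0.658) and Aadat (2.41). With this split Akr1c21 stood at 1.496 for P0 against E15.5 and Dmgdh at 1.02 for the transplant against P0, in the cells without such a UMI. With the split on Osr2 alone, Ugt2b34 turned at P0 (0.589), and in the transplant Pck1 (0.996), Gatm (0.857), Cyp2e1 (0.917), Akr1c21 (0.926), Gsta2 (0.678), Dao (0.976), Sult1d1 (0.820) and Aadat (2.37) turned. Akr1c21 then stood at 1.10 for P0 against E15.5.

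Depth limits Hpd, Cyp4b1, Cyp2e1 and G6pc, and the 21 transporter-high cells of E15.5 limit every ratio formed with them.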
